A study of Homo sapiens with 12 samples.

Results

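HepG2 cells that received A-485 together with doxycycline (A-485 + Dox, 3 libraries) were compared with HepG2 cells that received the solvent alone (DMSO, 3 libraries). The 6 libraries were chosen by their treatment labels, out of 12 in the study, and all 13511 genes of the deposited count table entered the comparison. HepG2 is a human hepatoma line that keeps many functions of liver cells, and the labels give its genotype as WT in every group. A-485 + Dox cells were pretreated for 1 h with 5 µM A-485 and then kept for 24 h in A-485 with 30 µg/ml doxycycline. DMSO cells had 1 h and then 24 h in DMSO. The study also has cells with A-485 alone and with doxycycline alone (Dox), at the same doses and times and with 3 libraries each. Poly(A)-enriched RNA was sequenced. Nothing in the labels tells if replicate libraries are separate cultures, and the p-values may therefore cover technical spread alone. Replicate 1 of Dox stood apart from the other libraries of its group, and results on Dox are given in the text with and without it.

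CBP and p300 are paired acetyltransferases that acetylate histones at enhancers and promoters and are recruited by many tissue-specific transcription factors. A-485 competes with acetyl-CoA in their catalytic site. Doxycycline, an antibiotic of the tetracycline class, also binds mitochondrial ribosomes and slows the translation of the respiratory chain proteins that mitochondrial DNA encodes. Cells answer such mitochondrial stress through the integrated stress response, in which phosphorylation of eIF2 lowers general translation while the transcription factor ATF4 is made and switches on genes for amino acid uptake and synthesis.

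With both compounds, most liver-specific messenger RNAs, the replication genes and the cholesterol synthesis genes were lower than with DMSO, while EGR and other early response genes, the integrated stress response and mitochondrial ribosomal RNA were higher. Of the 13511 genes, 6222 rose (46.1%) and 6021 fell (44.6%) at an adjusted p under 0.05 in edgeR's quasi-likelihood test, 90.6% in all, so a call by itself sets no gene apart. Replicates were so close (the biological coefficient of variation was 1.18%) that small differences passed. The counts below therefore also use a test against a 2-fold change, which 1135 genes passed as higher (8.4%) and 1982 as lower (14.7%) at an adjusted p under 0.05. A fold change is given on the log2 scale with its standard error (SE, 3 libraries in each group), and a level is in CPM (counts scaled to a library of fixed size) on library sizes scaled by the trimmed mean of M values (TMM).

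Large decreases were more frequent than large increases. The fitted fold change was larger than 8 for 88 genes higher in A-485 + Dox and for 382 genes lower, and larger than 64 for 2 and 68 genes. The 1982 genes that fell beyond 2-fold held 12.02% of all gene counts in A-485 + Dox libraries, against 32.9% in DMSO libraries. The 1135 genes that rose beyond 2-fold held 12.6% in A-485 + Dox libraries, against 3.22% in DMSO libraries. Among the 20% of genes with the highest mean expression, 3.81% rose and 16.1% fell beyond 2-fold, and among the 20% with the lowest, 15.8% rose and 16.5% fell. Each deposited gene exceeds 1 CPM in at least 2 libraries, so a low gene can be in the table through 1 treatment alone. The shares among low genes may depend in part on that filter. Genes with short exonic length fell more often: 18.8% of the shortest 20% and 10.3% of the longest 20% fell beyond 2-fold, whereas 8.10% and 8.99% rose. Of the 428 long intergenic RNA genes, 13.1% rose and 17.5% fell beyond 2-fold.

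Counts can also be compared on library totals alone, without TMM. That scaling moved log2 fold changes up by 0.36 and the median over all genes to 0.38, against 0.02 with TMM. Rises then made up 67.4% of all calls, against 50.8% with TMM, and 61.8% of the calls beyond 2-fold, against 36.4%. Each gene named below as having risen or fallen against DMSO had an adjusted p of at most 4.23e-07 in edgeR's test, and members that are only counted had one under 0.05. In a fit of all 12 libraries, Dox replicate 1 included, CTNNB1, EP300, GDF15, MT-ATP6, NR5A2, PCK2, SERPINA1 and TM7SF2 were no longer called. Values below are on the TMM scale, and gene groups whose direction turns with library totals are named as such.

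**Figure D1:**
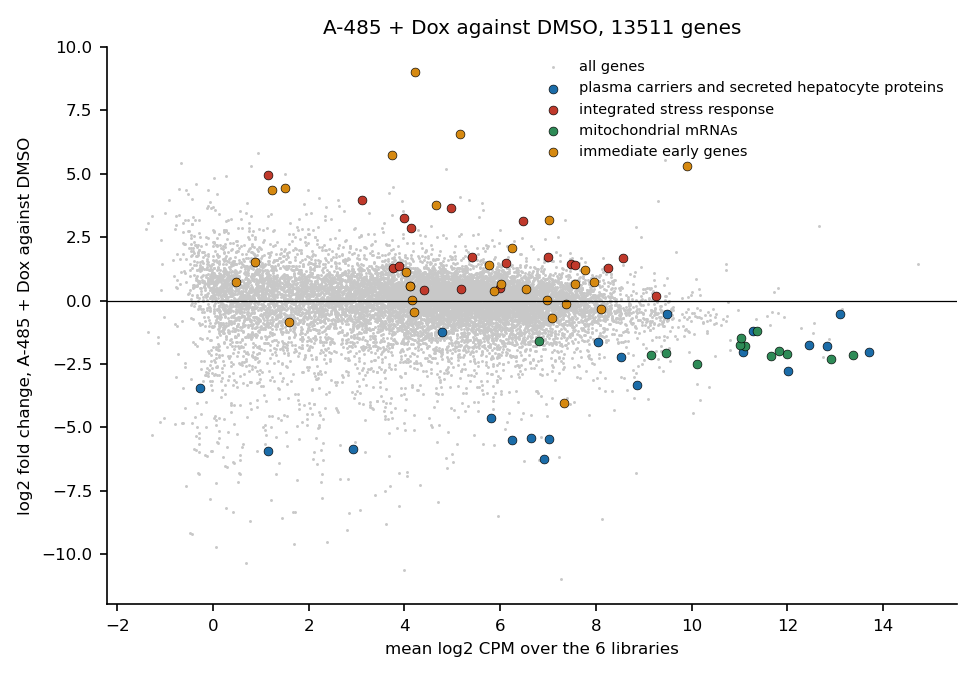
Log2 fold change of A-485 + Dox against DMSO (vertical axis) against mean log2 CPM over the 6 libraries (horizontal axis) for 13511 genes. Grey points are all genes, and coloured points are members of 4 gene lists. The 20 secreted hepatocyte proteins and 13 mitochondrial mRNAs lie below 0, the 20 integrated stress response genes lie above 0, and of 28 immediate early genes 20 were called higher.

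Gene totals ran from 46600324 to 51773300 counts in the 6 libraries. The hepatocyte markers ALB, AFP, APOA1, SERPINA1, TTR and HNF4A were all detected. Albumin (ALB) had 5214, 5260.4 and 5267 CPM in A-485 + Dox libraries, against 21622, 21264 and 21453 CPM in DMSO libraries. Of 10 endothelial markers 3 were measured, with summed levels of 16.0 to 16.4 CPM in A-485 + Dox and 7.99 to 8.32 CPM in DMSO libraries, and TEK, CDH5, VWF and KDR are not in the table. Of 11 leukocyte markers 5 were measured, summing to 585 to 607 CPM in A-485 + Dox and 1301 to 1316 CPM in DMSO libraries. Nearly all of that sum was LYZ, whose exons overlap another gene over 34.0% of their length, while PTPRC and CD68 are not in the table. Of 10 stromal markers 3 were measured, at 14.3 to 15.2 CPM in A-485 + Dox and 43.8 to 47.2 CPM in DMSO libraries, and COL1A1, COL1A2 and DCN are not in the table. Of 8 cholangiocyte markers 5 were measured, at 488 to 496 CPM and 2098 to 2116 CPM, and KRT7 is not in the table. Of 10 neuronal markers 2 were measured, at 6.78 to 7.37 CPM and 2.14 to 2.79 CPM in sum. All libraries come from the same cultured hepatoma line, so these sums are given as levels of marker RNAs in that line. They are not given as amounts of other cell types. In bulk RNA, fewer cells that express a gene and less of its RNA per cell cannot be told apart. Whether any other cells were present was not tested.

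Among genes with a mean log2 CPM of at least 3, the largest rises were in transcription factors of the early response, in secreted factors and in membrane proteins. KLF2, a zinc finger factor, had 39.0, 36.8 and 35.7 CPM in A-485 + Dox libraries, against 0.0476, 0.0729 and 0.0876 CPM in DMSO libraries. These rest on 6339 counts in A-485 + Dox and 9 in DMSO, a ratio of 532 with a 95% counting interval of 280.0 to 1164 (exact, counting error only). TIMP1, an inhibitor of matrix metalloproteinases, had 1372, 1361 and 1363 CPM with A-485 + Dox, against 27.8, 29.3 and 29.6 CPM with DMSO. Libraries of the groups were far apart and close within each group, with a log2 fold change of 5.56 ± 0.02 for TIMP1. AQP3, a channel for water and glycerol, had 56.0, 58.3 and 55.3 CPM with A-485 + Dox, against 1.55, 1.51 and 1.60 CPM with DMSO. GPR137B, a lysosomal membrane protein, rose by 4.49 ± 0.08 on the log2 scale, and TPBG, the trophoblast glycoprotein, by 4.24 ± 0.08. The cytokine IL11 averaged 67.3 ± 0.242 CPM with A-485 + Dox and 3.99 ± 0.189 CPM with DMSO (SD, n = 3 each). Its groups did not overlap, which held for 90.7% of all genes. The long non-coding RNA LUCAT1 averaged 77.0 ± 0.873 CPM with A-485 + Dox and 4.83 ± 0.497 CPM with DMSO (SD, n = 3 each). EGR3, EGR2 and EGR1 complete the 10 largest rises at that level of expression and are described with the early response.

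The RNAs that fell the most, again among genes with a mean log2 CPM of at least 3, were low with both compounds. Most of them were close to undetectable, while FABP1 kept 1.22 CPM or more in each A-485 + Dox library. CPLX2, which encodes a complexin that acts in vesicle fusion, had 0.122, 0.231 and 0.106 CPM in A-485 + Dox libraries, against 313, 310.2 and 306 CPM in DMSO libraries. Its 26 counts with A-485 + Dox and 39877 with DMSO make it 2031-fold lower, with a counting interval of 1386 to 3109.6. ACSM2B, an acyl-CoA synthetase of mitochondria, had 3 counts over the A-485 + Dox libraries and 4105 over the DMSO libraries, a ratio of 1812 with a counting interval of 619.6 to 8790.2. Both genes were near the floor in each A-485 + Dox library, and ACSM2B has a close copy, ACSM2A, with which it may share reads. FABP1, the fatty acid binding protein of hepatocytes, had 1.22, 1.50 and 1.55 CPM with A-485 + Dox, against 569, 541 and 554 CPM with DMSO, and fell by 8.61 ± 0.03 on the log2 scale. UNC93A, a membrane protein, averaged 0.339 ± 0.0975 CPM with A-485 + Dox and 123 ± 1.81 CPM with DMSO (SD, n = 3 each). PLA2G2A, a secreted phospholipase, averaged 0.205 ± 0.0484 CPM and 51.6 ± 1.43 CPM in the same order. The phosphatase subunit PPP2R2C (log2 fold change -8.80 ± 0.13), the adaptor subunit AP1M2 (-7.67 ± 0.12), the genes AC012065.3 and HS1BP3-IT1 and the olfactory receptor pseudogene OR2I1P are the others among the 10 largest falls at that level of expression.

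**Figure D2:**
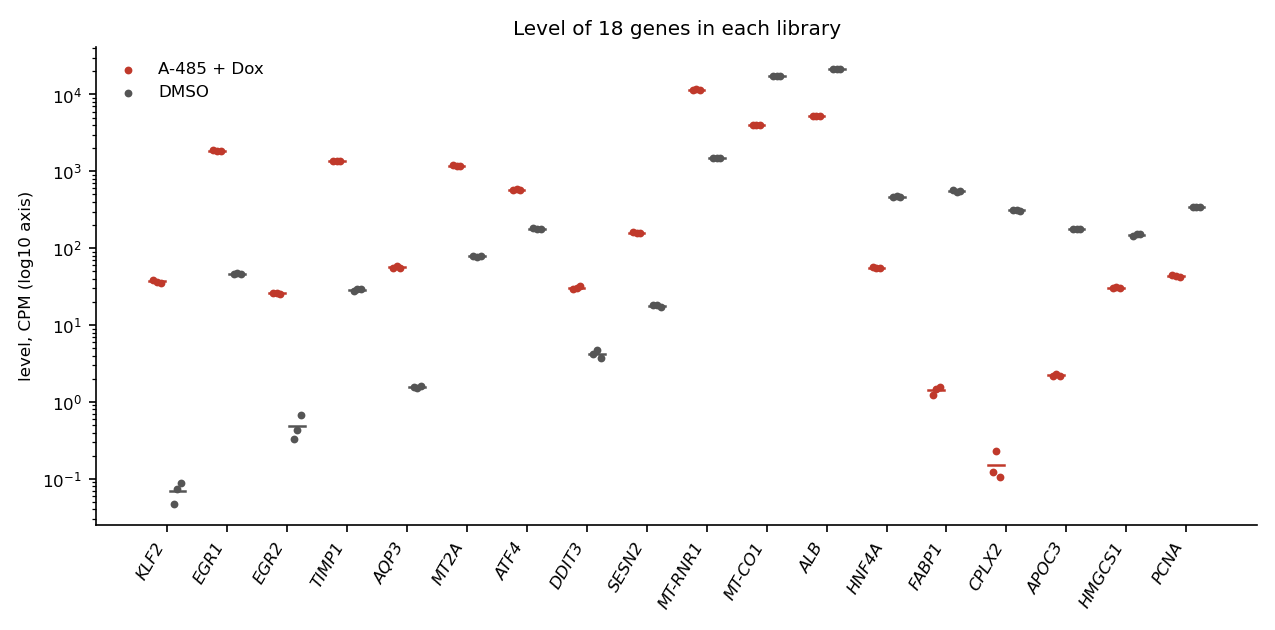
Level of 18 genes in each library, in CPM on a log10 axis, with A-485 + Dox libraries to the left of DMSO libraries for every gene. Points are the 3 libraries of each group and short bars are their means. The groups do not overlap for any of the 18 genes shown, nor for 90.7% of all genes.

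The genes for the proteins that hepatocytes secrete were lower as a group. All 20 measured genes for plasma carriers and other secreted proteins fell, 18 of them beyond 2-fold, with a median log2 fold change of -2.50, against 0.02 over all genes tested. They took up 2.55 to 2.58% of gene counts in A-485 + Dox libraries, against 6.10 to 6.17% in DMSO libraries. Albumin (GRCh38 chr4:73397114-73421412, plus strand) fell by 2.03 ± 0.01 on the log2 scale, and alpha-fetoprotein (AFP), the fetal plasma protein that hepatomas make, by 1.75 ± 0.01. SERPINA7, which carries thyroid hormone in blood, fell by 6.22 ± 0.03. ITIH3, an inter-alpha-trypsin inhibitor chain, was the member nearest to 0, at -0.52 ± 0.01.

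Among 18 apolipoprotein and lipoprotein assembly genes, 16 fell, 14 of them beyond 2-fold, and 1 rose (median -2.00). APOC3, an inhibitor of triglyceride breakdown, had 2.16, 2.31 and 2.16 CPM in A-485 + Dox libraries, against 178, 175 and 179 CPM in DMSO libraries. Hepatic lipase (LIPC) and APOA5 fell by 4.81 ± 0.07 and 4.60 ± 0.05 on the log2 scale, whereas CETP, which exchanges lipids between lipoproteins and is named after its values were seen, rose by 1.56 ± 0.15. APOA4 did not pass the test, with a log2 fold change of 0.02 ± 0.09, and 43.1% of its exon length overlaps another gene. In the list of coagulation and fibrinolysis, 19 of 23 fell, 17 beyond 2-fold, and 3 rose (median -2.03). SERPIND1, which encodes the thrombin inhibitor heparin cofactor II, had 8.59, 8.12 and 7.93 CPM with A-485 + Dox, against 895, 903 and 911 CPM with DMSO. PLAUR, the urokinase receptor, went the other way at 2.19 ± 0.06. Complement and acute phase genes fell in 19 of 20 cases, 15 beyond 2-fold (median -1.68), with mannose-binding lectin (MBL2) at -7.02 ± 0.14 and the iron hormone hepcidin (HAMP) at -6.37 ± 0.06.

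Metabolic genes of the hepatocyte were lower too. All 15 measured genes of bile acid synthesis and transport fell, 14 beyond 2-fold, with a median of -3.34. CYP7A1, the rate-limiting enzyme of bile acid synthesis, had 2 counts over the A-485 + Dox libraries and 698 over the DMSO libraries, a ratio of 462 with a counting interval of 127 to 3824. AKR1D1, a bile acid reductase, averaged 0.270 ± 0.0131 CPM with A-485 + Dox and 33.1 ± 0.269 CPM with DMSO (SD, n = 3 each). Gluconeogenesis genes fell in 11 of 12 cases, 7 beyond 2-fold (median -2.33). Glucose-6-phosphatase (G6PC) had 0.209, 0.214 and 0.352 CPM with A-485 + Dox, against 38.9, 40.7 and 39.6 CPM with DMSO. PCK1, the cytosolic PEP carboxykinase, had 1.91, 1.39 and 1.50 CPM with A-485 + Dox, against 58.9, 59.2 and 57.7 CPM with DMSO. The mitochondrial PEP carboxykinase PCK2, which is also an ATF4 target, was the member that rose, by 0.36 ± 0.02. Of 24 drug metabolism enzymes 20 fell, 15 beyond 2-fold (median -2.24), among them UGT2B10 at -6.28 ± 0.04, and GSTA4, a glutathione transferase, rose by 0.91 ± 0.04. Of 18 urea cycle and amino acid breakdown genes 13 fell, 10 beyond 2-fold (median -1.61). ARG1, the arginase of the urea cycle, fell by 5.87 ± 0.14.

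Hepatocyte transcription factors and nuclear receptors, taken as 1 list, fell in 20 of 24 cases, 14 beyond 2-fold, with a median of -1.26. HNF4A, a nuclear receptor that maintains hepatocyte identity (GRCh38 chr20:44355700-44434596, plus strand), had 57.0, 55.4 and 54.7 CPM in A-485 + Dox libraries, against 459, 474 and 464 CPM in DMSO libraries. HNF4A was 8.36-fold lower in the fit, and its groups did not overlap, which held for 90.7% of all genes. CEBPA had 1.29, 1.80 and 1.55 CPM, against 34.4, 35.6 and 36.5 CPM with DMSO, although its exons overlap another gene over 43.4% of their length. NR0B2, the bile acid-induced repressor SHP, fell by 4.80 ± 0.04 and NR5A2, a nuclear receptor that activates bile acid genes, rose by 0.57 ± 0.08. Wnt target genes, some of them active around the central vein of the liver, fell in 14 of 16 cases, 13 beyond 2-fold (median -2.07). RHBG, an ammonium transporter, had 0.626, 0.748 and 0.422 CPM with A-485 + Dox, against 60.7, 58.9 and 57.2 CPM with DMSO. The Wnt antagonist DKK1 fell by 4.22 ± 0.07, and the messenger RNA of beta-catenin itself (CTNNB1) rose by 0.11 ± 0.01.

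**Figure D3:**
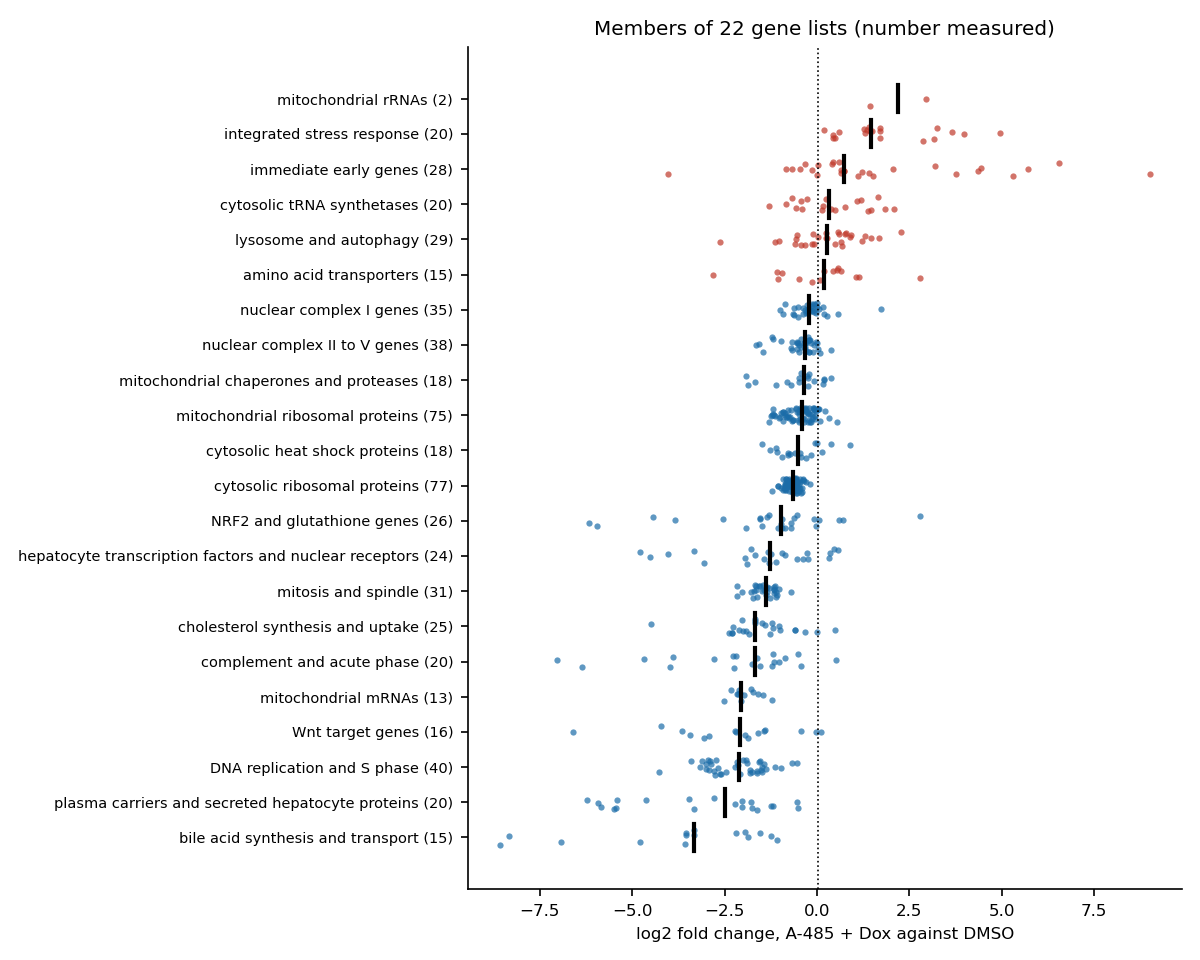
Log2 fold change of A-485 + Dox against DMSO (horizontal axis) for every measured member of 22 gene lists (rows). Points are genes, the vertical bar in a row is the median of the list, and the dotted line is the median of all genes tested, 0.02. Medians run from -3.34 for bile acid genes to 2.19 for the 2 mitochondrial ribosomal RNAs.

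The integrated stress response was higher in every listed gene. All 20 rose, 15 of them beyond 2-fold, with a median log2 fold change of 1.47. ATF4, the central transcription factor (GRCh38 chr22:39519695-39522685, plus strand), had 574, 583 and 571 CPM in A-485 + Dox libraries, against 181, 177 and 175 CPM in DMSO libraries. DDIT3, the transcription factor CHOP, had 29.4, 30.5 and 31.8 CPM, against 4.26, 4.69 and 3.72 CPM with DMSO, with 39.6% of its exon length shared with MARS. Libraries of the groups did not overlap for either gene, which held for 90.7% of all genes. NUPR1, a small stress-induced nuclear protein, had 15.5, 16.8 and 16.4 CPM, against 1.07, 0.826 and 1.16 CPM with DMSO. ADM2, a peptide hormone, rose by 3.65 ± 0.05, JDP2, a repressor at AP-1 sites, by 3.25 ± 0.06 and SESN2, a leucine sensor that restrains mTORC1, by 3.16 ± 0.03. The pseudokinase TRIB3 rose by 1.44 ± 0.02. GDF15, a hormone raised in mitochondrial disease, had the smallest change of the list, with 663, 655 and 635 CPM in A-485 + Dox libraries and 571, 561 and 576 CPM in DMSO libraries.

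ATF4 binds its targets together with C/EBP proteins at an element that reads TGATGNAA. This motif, on either strand, was found in the RefSeq promoter windows (GRCh38.p14, 250 bases before to 50 after the start) of 4 of the 18 stress response genes with a window, 22.2%, and of 2.74% of 10189 tested genes with a window. The 4 genes are CHAC1, JDP2, CEBPG and ATF3. Of the 13 listed genes with a window that rose beyond 2-fold, 2 held the motif. The windows of CHAC1 and JDP2, which rose beyond 2-fold, are printed with the motif in capitals.

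CHAC1 (chr15:40953221-40953520, plus strand): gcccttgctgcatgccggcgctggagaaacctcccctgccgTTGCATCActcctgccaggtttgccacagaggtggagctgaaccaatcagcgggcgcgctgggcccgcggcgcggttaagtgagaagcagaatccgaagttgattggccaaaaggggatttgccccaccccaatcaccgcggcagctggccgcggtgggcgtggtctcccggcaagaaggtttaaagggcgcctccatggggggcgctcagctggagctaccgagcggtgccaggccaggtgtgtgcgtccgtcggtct
JDP2 (chr14:75427772-75428071, plus strand): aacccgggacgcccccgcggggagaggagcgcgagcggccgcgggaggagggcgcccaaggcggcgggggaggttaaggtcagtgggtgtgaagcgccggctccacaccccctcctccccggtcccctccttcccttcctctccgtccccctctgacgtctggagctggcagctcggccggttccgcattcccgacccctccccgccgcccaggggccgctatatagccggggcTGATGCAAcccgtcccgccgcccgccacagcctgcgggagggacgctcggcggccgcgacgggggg
CHAC1, a glutathione-degrading enzyme that is named here after its values were seen, averaged 4.15 ± 0.202 CPM with A-485 + Dox and 0.134 ± 0.0648 CPM with DMSO (SD, n = 3 each), a log2 fold change of 4.95 ± 0.20. A match describes the sequence and is no evidence of binding.

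Genes of amino acid supply and charging, many of them ATF4 targets, went both ways, and over all genes tested 46.1% rose and 44.6% fell. Of 20 cytosolic tRNA synthetases 13 rose, 7 of them beyond 2-fold, and 7 fell, 1 beyond 2-fold (median 0.32). CARS and WARS, for cysteine and tryptophan, rose by 2.09 ± 0.03 and 1.85 ± 0.02, and VARS, for valine, fell by 1.30 ± 0.02. Of 16 mitochondrial tRNA synthetases 13 fell and 2 rose (median -0.47, and -0.11 with library totals). Of 15 amino acid transporters 9 rose, 3 beyond 2-fold, and 6 fell, 2 beyond 2-fold (median 0.19). The cystine transporter SLC7A11 had 111, 109.8 and 112 CPM in A-485 + Dox libraries, against 16.6, 15.5 and 16.2 CPM in DMSO libraries. SLC38A4, a transporter typical of liver, fell by 2.80 ± 0.08. Genes of serine, folate, proline and asparagine synthesis rose in 5 of 16 cases, 4 beyond 2-fold, and fell in 10, 6 beyond 2-fold, with a median of -0.32 that turned to 0.05 with library totals. ALDH1L2, the mitochondrial formyltetrahydrofolate dehydrogenase, rose by 2.65 ± 0.07. Asparagine synthetase (ASNS) had 3.56, 3.24 and 3.10 CPM with A-485 + Dox, against 0.476, 0.437 and 0.482 CPM with DMSO, with 44.6% of its exon length shared with another gene. The cytosolic folate enzymes MTHFD1 and SHMT1, which also serve nucleotide synthesis, fell by 2.42 ± 0.02 and 2.37 ± 0.03.

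RNAs from mitochondrial DNA moved in opposite directions by class. All 13 messenger RNAs fell beyond 2-fold, with a median of -2.05 and a range of -2.51 to -1.21, and both ribosomal RNAs rose beyond 2-fold. Messenger RNAs took up 1.82 to 1.86% of gene counts in A-485 + Dox libraries, against 5.73 to 5.82% in DMSO libraries. Ribosomal RNAs took up 5.74 to 5.86% in A-485 + Dox libraries, against 1.43 to 1.44% in DMSO libraries. All RNAs of the mitochondrial chromosome together held 7.56 to 7.72% in A-485 + Dox libraries, against 7.18 to 7.27% in DMSO libraries. These shares are of unscaled counts. On the TMM scale the same 16 RNAs summed to 66655 to 68155 CPM in A-485 + Dox libraries, against 81296 to 82387 CPM in DMSO libraries, so the direction of the total turns with the scaling. Copies of mitochondrial genes in nuclear DNA may also take or share reads. The libraries were poly(A)-enriched, so the amount of such an RNA and the share of it that carries a tail cannot be told apart. MT-CO1, a catalytic subunit of cytochrome oxidase, had 3952, 3973 and 3990.0 CPM with A-485 + Dox, against 17264, 17331 and 17293 CPM with DMSO. MT-ND6, a complex I subunit and the messenger RNA read from the other strand of mitochondrial DNA, had 313, 345 and 341 CPM, against 1992, 1833 and 1862 CPM with DMSO, the deepest fall of the 13. MT-ATP6, a subunit of ATP synthase, had the smallest fall, at -1.21 ± 0.01. The small ribosomal RNA MT-RNR1 had 11341, 11714 and 11481 CPM with A-485 + Dox, against 1495, 1490.3 and 1494 CPM with DMSO. The large ribosomal RNA MT-RNR2 had 39230.0, 39854 and 40248 CPM with A-485 + Dox, against 14741, 14817 and 14827 CPM with DMSO. Every A-485 + Dox library was above every DMSO library for both ribosomal RNAs, and the groups did not overlap for 90.7% of all genes.

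**Figure D4:**
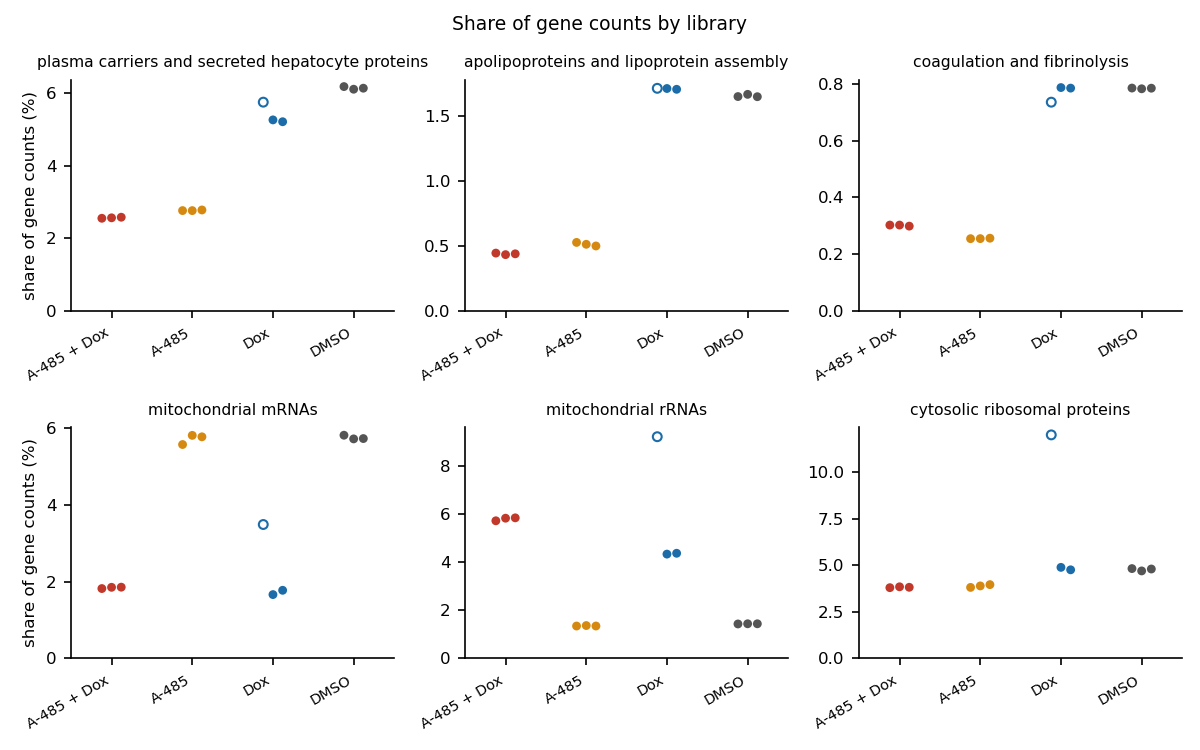
Share of all gene counts (vertical axis, percent) held by 6 gene groups in each library of the 4 treatments, with A-485 + Dox first and DMSO last. Points are libraries, and the open circle is Dox replicate 1. In A-485 + Dox libraries the mitochondrial messenger RNAs hold 1.82 to 1.86% and the ribosomal RNAs 5.74 to 5.86%, against 5.73 to 5.82% and 1.43 to 1.44% in DMSO libraries.

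Nuclear genes for mitochondrial functions moved less. Over all genes tested, 44.6% fell, 46.1% rose, and 14.7% fell beyond 2-fold. Of 75 mitochondrial ribosomal protein genes 65 fell, 7 beyond 2-fold, and 5 rose (median -0.42, and -0.06 with library totals). Of 38 genes for complexes II to V 33 fell, 5 beyond 2-fold (median -0.32, turning to 0.04 with library totals), with ATP5F1D, an ATP synthase subunit, at -1.66 ± 0.03. Of 35 nuclear complex I genes 23 fell and 4 rose (median -0.20, turning to 0.16 with library totals). NDUFA13, an accessory subunit named after its values were seen, rose by 1.75 ± 0.14. Mitochondrial chaperones and proteases fell in 14 of 18 cases, 4 beyond 2-fold (median -0.34, turning to 0.02 with library totals). HSPD1, the mitochondrial chaperonin, averaged 744 ± 19.0 CPM with A-485 + Dox and 2836 ± 4.81 CPM with DMSO (SD, n = 3 each). Mitochondrial transcription and RNA turnover genes fell in 15 of 16 cases, 3 beyond 2-fold (median -0.51, and -0.15 with library totals). TFB2M, a factor that opens the mitochondrial promoters, had -1.37 ± 0.04.

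Sterol and fatty acid synthesis genes were lower. Of 25 genes of cholesterol synthesis and uptake 23 fell, 19 beyond 2-fold, and 1 rose (median -1.67). HMGCS1, which makes the substrate of HMG-CoA reductase, had 30.4, 31.5 and 30.2 CPM in A-485 + Dox libraries, against 146, 152 and 154 CPM in DMSO libraries. Each A-485 + Dox library was lower than any DMSO library, and the groups did not overlap for 90.7% of all genes. The sterol reductase DHCR7, which completes cholesterol, fell by 2.39 ± 0.02, and TM7SF2, another sterol reductase, rose by 0.49 ± 0.02. The sterol carrier STARD4 did not pass the test, with a log2 fold change of 0.01 ± 0.03. A sterol response element, TCACNCCAC on either strand, was found in the promoter window of 1 of the 18 listed genes with a window (5.56%). Over the 10189 tested genes with a window the share was 1.46%. Of 20 fatty acid synthesis genes 17 fell, 11 beyond 2-fold (median -1.26). Fatty acid synthase (FASN) averaged 180.1 ± 2.96 CPM with A-485 + Dox and 1101 ± 7.86 CPM with DMSO (SD, n = 3 each), and GPAM, which starts triglyceride synthesis, fell by 3.42 ± 0.04. Of 21 genes in a list of fatty acid oxidation and PPAR-alpha targets 17 fell, 10 beyond 2-fold (median -0.93). PPARGC1A, a coactivator of mitochondrial and gluconeogenic genes, fell by 3.12 ± 0.05, whereas ANGPTL4, a lipase inhibitor, rose by 1.32 ± 0.03.

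Immediate early genes, which growth factor and stress signals induce rapidly, in part through serum response factor, were mostly higher at 24 h. Of 28 measured, 20 rose, 13 beyond 2-fold, and 6 fell, 1 beyond 2-fold (median 0.72). EGR1 had 1878, 1864 and 1835 CPM in A-485 + Dox libraries, against 45.9, 47.4 and 46.8 CPM in DMSO libraries. EGR2 had 26.5, 26.5 and 25.1 CPM with A-485 + Dox, against 0.334, 0.437 and 0.679 CPM with DMSO. EGR3 averaged 70.8 ± 0.915 CPM with A-485 + Dox and 0.744 ± 0.129 CPM with DMSO (SD, n = 3 each). These zinc finger transcription factors had log2 fold changes of 5.31 ± 0.02, 5.73 ± 0.09 and 6.56 ± 0.06, whereas MYC, the growth regulator, was the member that fell beyond 2-fold, by 4.02 ± 0.02. The CArG box, the element that serum response factor binds, was found in the promoter windows of 3 of the 21 listed genes with a window (EGR1, EGR2 and SRF), 14.3%, and in 1.51% of the 10189 tested genes with a window. The EGR1 window is shown with its 2 boxes in capitals.

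EGR1 (chr5:138465229-138465528, plus strand): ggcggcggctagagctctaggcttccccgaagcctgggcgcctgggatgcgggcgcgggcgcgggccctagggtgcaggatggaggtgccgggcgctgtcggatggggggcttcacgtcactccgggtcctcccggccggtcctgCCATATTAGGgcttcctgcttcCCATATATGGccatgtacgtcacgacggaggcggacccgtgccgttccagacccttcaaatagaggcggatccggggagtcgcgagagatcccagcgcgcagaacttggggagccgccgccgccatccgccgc

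Cell cycle genes were lower. All 40 genes of DNA replication and S phase fell, 37 beyond 2-fold (median -2.11), and all 31 genes of mitosis and the spindle fell, 29 beyond 2-fold (median -1.37). PCNA, the sliding clamp of DNA polymerase, had 45.2, 43.1 and 41.6 CPM with A-485 + Dox, against 345, 347 and 344 CPM with DMSO. UHRF1, which maintains DNA methylation at replication, had 5.80, 5.68 and 5.50 CPM with A-485 + Dox, against 108, 112 and 109 CPM with DMSO. Each A-485 + Dox library was far under each DMSO library for both genes, and the groups did not overlap for 90.7% of all genes. E2F1, which drives entry into S phase, fell by 3.15 ± 0.03, and the mitotic kinase AURKB by 2.17 ± 0.03. Cyclin D1 (CCND1) fell to 21.7 ± 0.355 CPM in A-485 + Dox libraries, against 349.7 ± 6.32 CPM in DMSO libraries (SD, n = 3 each). Over the G1 regulators 9 of 19 rose, 3 beyond 2-fold, and 8 fell, 2 beyond 2-fold. These are close to the shares over all genes tested, 46.1% higher and 44.6% lower. The inhibitor CDKN2B rose by 2.51 ± 0.07. Of 24 p53 targets 9 rose, 3 beyond 2-fold, and 15 fell, 6 beyond 2-fold (median -0.46), and the p53 target CDKN1A, an inhibitor of cyclin-dependent kinases, rose by 0.69 ± 0.02. E2F sites, taken as TTTCCCGC, TTTGGCGC, TTTCGCGC or TTTGCCGC on either strand, were present in the promoter windows of 21 of the 34 replication genes with a window (61.8%) and of 6.64% of all tested genes with a window. The window of UHRF1, the deepest fall of the list, is shown with its site in capitals.

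UHRF1 (chr19:4909251-4909550, plus strand): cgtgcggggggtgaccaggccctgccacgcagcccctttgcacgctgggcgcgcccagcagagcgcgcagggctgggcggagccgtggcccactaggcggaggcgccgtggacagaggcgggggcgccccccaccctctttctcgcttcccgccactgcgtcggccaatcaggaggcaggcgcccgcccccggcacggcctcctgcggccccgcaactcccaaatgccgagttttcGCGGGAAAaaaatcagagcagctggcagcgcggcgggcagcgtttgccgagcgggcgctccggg

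Most protein synthesis and protein folding genes were lower on the TMM scale, by smaller amounts. The shares over all genes tested were 44.6% lower and 46.1% higher, with 14.7% lower beyond 2-fold. On the TMM scale all 77 cytosolic ribosomal protein genes fell, 2 of them beyond 2-fold, over a range of -1.22 to -0.18 (median -0.65). With library totals the median was -0.29. The smallest falls lie within the 0.36 by which that scaling moves values up, so not all members fall there. Of 25 ribosome biogenesis genes 24 fell, 10 beyond 2-fold (median -0.94), with the nucleolar protein NOP56 at -1.74 ± 0.02. Cytosolic heat shock genes fell in 13 of 18 cases, 4 beyond 2-fold, and rose in 3 (median -0.52, and -0.16 with library totals). The stress-inducible HSP70 gene HSPA1A had 23.1, 24.1 and 23.7 CPM with A-485 + Dox, against 55.9, 56.8 and 57.7 CPM with DMSO, although HSPA1B is nearly identical in sequence and reads may be split between them. Genes for chaperones of the endoplasmic reticulum and the unfolded protein response fell in 16 of 24 cases, 7 beyond 2-fold, for example MANF by 1.66 ± 0.03. The other 8 rose, 1 beyond 2-fold (median of the list -0.66). Of 31 proteasome genes 22 fell and 8 rose (median -0.17, turning to 0.19 with library totals).

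Other groups held both directions, and over all genes tested 46.1% rose and 44.6% fell. NRF2 and glutathione genes fell in 21 of 26 cases, 12 beyond 2-fold (median -0.96). GPX2, a glutathione peroxidase, had 4.36, 4.25 and 3.76 CPM in A-485 + Dox libraries, against 298, 292 and 302 CPM in DMSO libraries. Metallothionein genes, which serve zinc and copper binding, rose in 4 of 7 cases and fell in 2. MT2A had 1203, 1186 and 1169 CPM with A-485 + Dox, against 79.1, 77.8 and 78.4 CPM with DMSO, while MT1G, whose sequence is close to that of other metallothioneins, fell by 2.26 ± 0.08. Lysosome and autophagy genes rose in 17 of 29 cases, 5 beyond 2-fold, and fell in 11, 2 beyond 2-fold (median 0.28). The autophagy genes GABARAPL1 and MAP1LC3B rose by 2.28 ± 0.03 and 1.69 ± 0.02, and CTSH, a lysosomal protease, fell by 2.62 ± 0.02. Clock genes rose in 8 of 18 cases, 2 beyond 2-fold, and fell in 8, 2 beyond 2-fold, close to the shares over all genes. HLF, an output transcription factor, had -3.06 ± 0.02 and the repressor CRY1 1.50 ± 0.04. Glycolysis and glucose uptake genes rose in 9 of 26 cases, 3 beyond 2-fold, and fell in 16, 5 beyond 2-fold. SLC2A2, the glucose transporter of hepatocytes, fell by 4.97 ± 0.06, and hexokinase 1 (HK1) rose by 2.94 ± 0.05.

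For the next lists, the shares over all genes tested are 46.1% higher and 44.6% lower. Hypoxia-inducible genes rose in 9 of 20 cases, 2 beyond 2-fold, and fell in 10, 0 beyond 2-fold (median -0.12, turning to 0.24 with library totals). YAP and TEAD targets rose in 4 of 14 and fell in 10 (median -0.31, turning to 0.06). Genes of the insulin and IGF axis rose in 6 of 19 and fell in 12. Interferon-responsive genes rose in 7 of 18 cases and fell in 11, and genes of MHC class I presentation rose in 5 of 14 and fell in 8. The medians of the insulin, interferon and MHC lists were -0.18, -0.33 and -0.15, and turned to 0.18, 0.03 and 0.21 with library totals. Of 29 acetyltransferase, deacetylase and bromodomain genes 16 rose, 2 beyond 2-fold, and 11 fell. The genes of the enzymes that A-485 inhibits were both higher, also with library totals, although the call on EP300 was lost with all 12 libraries. CREBBP, which encodes CBP, had 196, 193 and 189.9 CPM with A-485 + Dox, against 97.7, 99.7 and 100.4 CPM with DMSO. EP300, which encodes p300, had 232, 230.0 and 231 CPM with A-485 + Dox, against 132, 134 and 133 CPM with DMSO.

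The single treatments show which of these values each compound also gave alone. A-485 alone, tested against DMSO in 6 libraries, called 1009 genes higher (7.47%) and 1905 lower (14.1%) beyond 2-fold. Dox replicate 1 differed from the other libraries of its group, with a chi-square per degree of freedom of 870.1 and 888 against them where the other pairs of replicates had 1.32 to 3.79, so values are given first without it. Dox then called 107 genes higher (0.794%) and 67 lower (0.497%) beyond 2-fold, and with all 3 libraries 27 higher (0.201%) and 1 lower (0.00743%). These comparisons share the DMSO libraries, so their values stand side by side with no test between them. Bile acid genes had a median log2 fold change against DMSO of -3.34 with both compounds, -3.50 with A-485 and 0.14 with Dox. Secreted proteins had -2.50, -2.44 and -0.10, and replication genes -2.11, -2.24 and -0.21, in the same order. The integrated stress response had 1.47, -0.15 and 1.72, and mitochondrial messenger RNAs had -2.05, -0.35 and -1.71. For amino acid transporters the medians were 0.19, -1.16 and 1.00, and for cholesterol genes -1.67, -1.46 and -0.95. With all 3 Dox libraries the Dox median of mitochondrial messenger RNAs was -0.69, that of secreted proteins turned to 0.18 and that of bile acid genes was 0.43. The Dox medians were then 1.72 for the integrated stress response, -0.21 for replication, 1.03 for transporters and -0.94 for cholesterol genes.

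**Figure D5:**
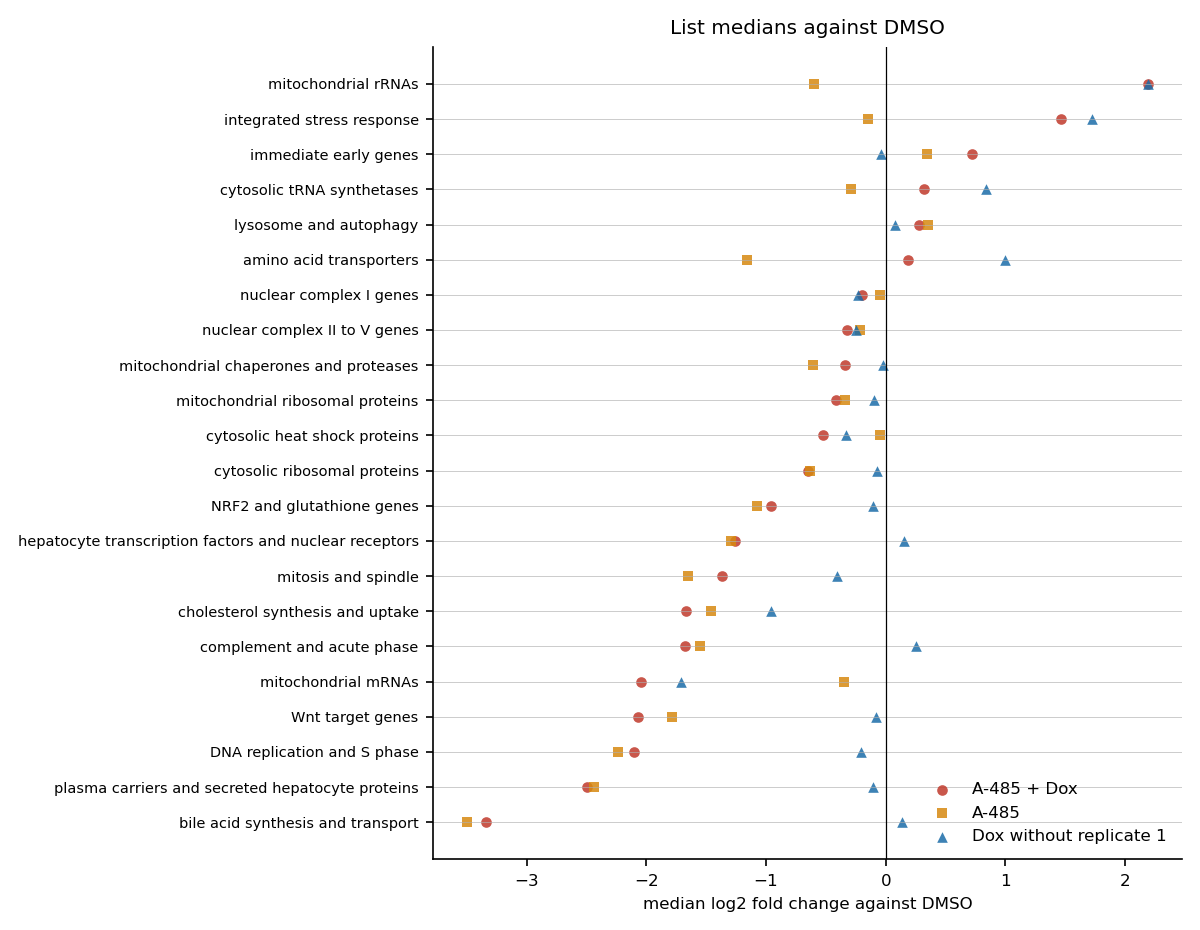
Median log2 fold change of 22 gene lists (rows) against DMSO (horizontal axis), for A-485 + Dox, A-485 and Dox without its replicate 1. Points are list medians, and the 3 comparisons share the DMSO libraries. The bile acid median is -3.34 for A-485 + Dox and -3.50 for A-485, and the integrated stress response median is 1.47 for A-485 + Dox and 1.72 for Dox.

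The direct test of A-485 + Dox against A-485 gives the difference with doxycycline present. It called 4377 of 13406 genes higher (32.6%) and 4344 lower (32.4%), but 86 higher (0.642%) and 32 lower (0.239%) beyond 2-fold. Of the 20 stress response genes 17 were higher beyond 2-fold, with a median of 1.92. ATF4 was 2.34 ± 0.02 higher on the log2 scale than with A-485 alone, and DDIT3 2.41 ± 0.05 higher. Of the 13 mitochondrial messenger RNAs 12 were lower beyond 2-fold, and both ribosomal RNAs were higher beyond 2-fold. Transporters were higher in 12 of 15 cases, 8 beyond 2-fold, and tRNA synthetases in 16 of 20, 8 beyond 2-fold. Secreted protein genes were higher in 2 of 17 cases and lower in 13 (median -0.12), and cholesterol genes were higher in 6 of 25 and lower in 9 (median -0.03). HSPA1A had a log2 fold change of -1.49 ± 0.03 against A-485 alone.

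The test of A-485 + Dox against Dox gives the difference with A-485 present. With all 3 Dox libraries it called 368 of 13507 genes higher (2.72%) and 962 lower (7.12%) beyond 2-fold, 1330 in all, and 759, 730 and 730 in all without A-485 + Dox replicates 1, 2 and 3. Without Dox replicate 1 it called 901 of 13511 higher (6.67%) and 1769 lower (13.1%) beyond 2-fold, and the values that follow are first without it. Of the 20 stress response genes 3 were lower beyond 2-fold, with a median of -0.18, and ATF4 had a log2 fold change of -0.01 ± 0.02. Amino acid transporters were lower beyond 2-fold in 6 of 15 cases (median -0.68). Bile acid genes were lower beyond 2-fold in 14 of 15 cases, and replication genes in 36 of 40. With all 3 Dox libraries 1 stress response gene was lower beyond 2-fold (median -0.37), and ATF4 had -0.04 ± 0.11. The counts lower beyond 2-fold were then 6 for transporters (median -0.59), 12 for bile acid genes and 26 for replication genes.

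Where the changes with the single compounds add on the log2 scale, the departure from additivity is 0. Fitted over 11 libraries, without Dox replicate 1, it passed the 2-fold test as higher for 33 genes (0.244%) and as lower for 15 (0.111%). With all 12 libraries it did so for 6 (0.0444%) and 4 (0.0296%). Of the 25 cholesterol genes 8 were among the higher ones, with a list median of 0.82, and with all 12 libraries 2 were, with a median of 0.82. For HMGCS1 the log2 fold changes against DMSO were -2.29 with both compounds, -2.28 with A-485 and -1.64 with Dox (-2.08 with all 3 libraries), a departure of 1.62 ± 0.04 (2.06 ± 0.62 with all 12 libraries). It was lower in A-485 + Dox than the DMSO level, but in the fit of 11 libraries less so than the sum of the single changes. With all 12 libraries its departure was not called (adjusted p 0.13 in edgeR's test against no departure). The genes that stood highest above both single treatments, by the smaller of the 2 margins, were KLF2, LIF, UPP1, GPSM1 and LUCAT1, and those lowest below both were PPP2R2C, PEG13, PCK1, CEMIP and DEPP1. This choice used the values, so they are a description. LIF, a cytokine, had 79.7, 79.4 and 78.5 CPM in A-485 + Dox libraries, against 13.4, 13.2 and 12.3 CPM in DMSO libraries, with log2 fold changes of 2.61 with both compounds, 1.23 with A-485 and 0.07 with Dox (0.09 with all 3 libraries). CEMIP, a hyaluronan-binding protein, had -5.37, -3.84 and -0.99 (-1.36) in the same order.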

How the data were processed

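RNA of 12 HepG2 libraries was poly(A)-enriched and made into libraries with BGISeq500 protocols, per the labels. The deposited values are whole-number counts of reads per Ensembl gene. Per the submitters' processing notes, the tools were STAR 2.6.0a and HTSeq 0.10.0 and the build was GRCh38. The sources used here do not give a strand setting. Reads of overlapping genes cannot be told apart, and 213 genes share most of their exon length with another gene. Each of the 13511 deposited genes exceeds 1 CPM in at least 2 libraries, so low genes were removed before deposit. In the 6 libraries compared, 4 rows that name no gene held 9.10 to 10.0% (ambiguous), 2.96 to 3.14% (multiple alignments), 3.30 to 4.09% (no feature) and 1.87 to 8.93% (not aligned) of all counts in the table, and they were left out.

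From the counts, edgeR 4.0.16 in R 4.3.3 fitted the 6 libraries alone with TMM scaling (factors of 1.13 in A-485 + Dox and 0.882 to 0.883 in DMSO libraries), filterByExpr, a robust quasi-likelihood F test and glmTreat against a log2 change of 1, each with Benjamini-Hochberg adjustment over all genes tested. The SE is the absolute log2 fold change divided by the square root of F. Alternatives were DESeq2 1.42.0, limma-voom 3.58.1, other scalings, filters and library choices. Names and positions come from GENCODE 29.

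Named were the 10 largest rises and falls beyond 2-fold whose groups did not overlap and whose mean log2 CPM was at least 3, up to 4 leading members of each list with a mean CPM of 5 or more together with members going the other way or not called, a fixed set of genes, and the 5 genes highest above and lowest below both single treatments. Some genes that this rule names are not reported here. The members and lists were chosen with earlier results of these data known.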

Additional observations from a re-analysis of the deposited data

Results flagged for a closer look

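For 7 of the genes named, the log2 change with both compounds differed from the sum of the changes with A-485 and with Dox by more than 2-fold, in edgeR's test over 11 libraries without Dox replicate 1. Over all genes tested, 0.244% departed above the sum and 0.111% below it. LIF and DEPP1 are among the genes chosen for standing outside both single treatments. That choice used these values. Leading list members were named by their change with both compounds against DMSO, which is part of the departure. Members and lists were also chosen with earlier results of these data known. The p-values of all 7 genes are therefore a description only. HMGCS1 departed by 1.62 ± 0.04 above the sum (SE, adjusted p 3.67e-17) and STARD4, a sterol carrier, by 1.17 ± 0.05 (3.80e-02). STARD4 had log2 changes of 0.01 with both compounds, -0.08 with A-485 and -1.08 with Dox. ATF3, a stress-induced transcription factor, departed by 1.65 ± 0.08 (5.60e-09), with changes of 0.59, -1.81 and 0.75 in the same order. LIF departed by 1.31 ± 0.06 (2.25e-04), and ANGPTL4 by 1.29 ± 0.05 (2.34e-05), with changes of 1.32, 0.39 and -0.36.

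GPAM and DEPP1 were lower than the sum. GPAM departed by -1.57 ± 0.07 (adjusted p 1.71e-09), with changes of -3.42, -3.19 and 1.33, and DEPP1, an autophagy regulator, by -1.74 ± 0.06 (5.07e-14), with changes of -3.07, -1.74 and 0.40. DEPP1 shares 23.3% of its exon length with RASSF4.

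With all 12 libraries the departures were 2.06 for HMGCS1, 1.47 for STARD4, 1.75 for ATF3, 1.29 for LIF, 0.88 for ANGPTL4, -1.23 for GPAM and -1.98 for DEPP1. The adjusted p in edgeR, against no departure, was then 0.13 for HMGCS1, 0.067 for STARD4, 0.23 for ANGPTL4 and 0.19 for GPAM, and 0.00029 for ATF3, 0.00014 for LIF and 0.0025 for DEPP1.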

How the results depend on the processing

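Of 121 named genes, the 118 that were called kept their direction under every alternative that gave them a value, which a minimum mean CPM of 5 did for 114 of the 121. All 121 kept their side of the threshold under RLE size factors, DESeq2, limma-voom, no filter on low counts, the replicate block, the fit of 11 libraries and the fits without each of the 6 libraries in turn. The replicate block (12210 genes called, against 12243) changed no call on a named gene. With all 12 libraries in 1 fit, 8 named genes lost their call, and 7552 genes were called, 3706 higher and 3846 lower, with 697 higher beyond 2-fold; the biological coefficient of variation was then 20.7%, against 1.18% in the 6 libraries. Library totals brought APOA4, SRF and STARD4 past the threshold and gave 2262 genes higher beyond 2-fold, and a minimum mean CPM of 5, which tests fewer genes, brought SRF past it and gave 734. Leaving out 1 of the 6 libraries gave 12074 to 12132 calls. Library totals turned the medians of 10 lists to positive: serine, folate, proline and asparagine synthesis (0.0451), mitochondrial chaperones (0.0175), complex I (0.16), complexes II to V (0.0358), hypoxia (0.24), YAP and TEAD (0.055), insulin and IGF (0.18), interferon (0.0342), MHC class I (0.21) and proteasome (0.19). A-485 + Dox against Dox gave 1330 genes beyond 2-fold (368 higher, 962 lower) with all 6 libraries and 771 (169 and 602) with the replicate block. Same-numbered libraries had correlations of their deviations of -0.048 to -0.038 between A-485 + Dox and DMSO, and of -0.11 to 0.14 between A-485 + Dox and Dox, so the numbers were not taken to pair them. Leaving out 1 library at a time, in fits chosen in part after seeing the data, gave 730 to 2670 (180 to 901 higher and 549 to 1769 lower), the most without Dox replicate 1. It gave 759, 730 and 730 without A-485 + Dox replicates 1, 2 and 3. A-485 + Dox against A-485 gave 116 to 118. Dox against DMSO gave 28 genes beyond 2-fold with all 3 Dox libraries (27 higher, 1 lower), and 174 without replicate 1 (107 and 67). The departure from additivity was called beyond 2-fold for 10 genes with all 12 libraries (6 higher, 4 lower), and both fits were added after seeing the data. The cause was not tested.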
